A study of Homo sapiens with 2 samples.

Results

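The miR-548 family of human microRNAs (miRNAs) was examined in exosomes, small vesicles that cells release, of the human hepatocellular carcinoma line HuH-7. Its members were every array probe whose scanner name starts with miR-548 and a letter, which gave 73 of 2565 miRNA probes. Of these, 67 carried 1 miRNA name and 6 carried several, for 80 miR-548 names in all. One group was titled HuH-7-P exosome and the other HuH-7-M exosome, each 1 exosome preparation on 1 array. The labels spell out neither P nor M and do not say whether either culture is a clone or a pool. The series title places the work in intrahepatic metastasis of liver cancer, and the arrays ask which vesicle miRNAs differ between the cultures. Both cultures were grown with fetal bovine serum and then moved to advanced DMEM before the vesicles were filtered and pelleted. With n = 1 per group, the design allowed no test of HuH-7-M against HuH-7-P, and differences are given as descriptions.

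miRNAs are short RNAs cut from hairpin precursors, and they pair with messenger RNAs mainly through their seed, the stretch from base 2 to base 8. The miR-548 hairpins are held to derive from MADE1 elements, short palindromic DNA transposons of primates whose transcripts fold back on themselves. Copies of the element lie at many places in the genome, often within introns of unrelated genes, so the family is large, rich in A and U, and full of near-identical members. No file used here records that origin, and the members were taken by name alone. A probe for one member may also capture a near-identical relative. Probes also differ in how well they bind, so signals of different probes are set here against the background spots and are not an order of RNA amounts.

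Sequences were taken from the RefSeq table for build GRCh38.p14, which held 52 of the 73 members and 2264 of the 2565 probes. The first set shows the 3 members that stood above the BLANK limit described below on either array, followed by the close relatives of miR-548ab. Capitals mark the seed, and all are written 5′ to 3′.
miR-548q: gCUGGUGCaaaaguaauggcgg
miR-548ab: aAAAGUAAuuguggauuuugcu
miR-548ay-3p: cAAAACCGcgauuacucuugca
miR-548n: cAAAAGUAauuguggauuuugu
miR-548k: aAAAGUACuugcggauuuugcu
miR-548b-5p: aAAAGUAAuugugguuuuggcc
The miR-548q locus lies at chr10:12725325-12725346 on the minus strand, within the span of the protein-coding gene CAMK1D. The loci of miR-548ab (chr3:103524085-103524106) and miR-548ay-3p (chr3:32506305-32506326), also on the minus strand, lie within no gene of the RefSeq table. miR-548n maps within the span of DPY19L1 (chr7:34940804-34940825, minus strand), miR-548k within PPFIA1 (chr11:70283986-70284007, plus strand) and miR-548b-5p within FAM184A (chr6:119069098-119069119, minus strand).

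A second set shows the common forms of the family, with both arms of a single hairpin and the short miR-548f-3p, which RefSeq lists at 5 loci.
miR-548aq-5p: gAAAGUAAuugcuguuuuugcc
miR-548aq-3p: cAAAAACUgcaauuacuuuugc
miR-548as-5p: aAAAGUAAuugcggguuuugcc
miR-548g-5p: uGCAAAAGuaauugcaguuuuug
miR-548f-3p: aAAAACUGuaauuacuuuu
The letters AAAGUAA occurred in 15 of the 52 members (28.8%) and in 3 of the 2212 other probes with a sequence (0.136%), namely miR-559, miR-412-5p and miR-876-3p. The reverse complement, UUACUUU, occurred in 17 members (32.7%) and in 4 others (0.181%), namely miR-340-3p, miR-4480, miR-126-5p and miR-603. No member held both, so that 32 members (61.5%) held the word in one orientation or the other, against 7 of the other probes (0.316%). In 11 members AAAGUAA starts at base 2 and is the seed itself. In miR-548q it starts at base 10, so the seed of that member is made of other letters.

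Nearly the whole family read at or under the level of empty spots on both arrays. The signal is the spot median intensity in arbitrary units, with no background subtracted. The 320 BLANK spots had a mean of 59.7 ± 1.64 (SD over spots) on the HuH-7-P array, and the mean was 58.7 ± 1.63 on the HuH-7-M array. The members ran from 51.1 through a median of 55.3 to 113 on the HuH-7-P array. On HuH-7-M they ran from 51.6 through a median of 54.9 to 139. The median member thus lay below the BLANK mean on both arrays, at -4.40 units on the HuH-7-P and -3.78 on the HuH-7-M array, while the median of all miRNA probes was 70.6 and 69.5. A low vesicle yield and less of a miRNA in each vesicle cannot be told apart from such signals.

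A probe was called above background where its signal lay more than 2 SD above the BLANK mean, both taken without the top and bottom 5% of the BLANK spots. That limit was 62.3 on the HuH-7-P and 61.2 on the HuH-7-M array. On HuH-7-P 2 members passed it (2.74%), against 65.1% of all miRNA probes. On HuH-7-M 3 members passed (4.11%), against 65.1% of all miRNA probes. Both arrays together had 2 such members, while 62.1% of all probes passed on both. The remaining 70 members (95.9%) passed on neither array, against 31.9% of all probes. These 70 spanned 51.1 to 60.5 on HuH-7-P, with a mean of 55.2 ± 2.0 (SD over members), and 51.6 to 58.8 on HuH-7-M, with a mean of 54.7 ± 1.69.

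**Figure D1:**
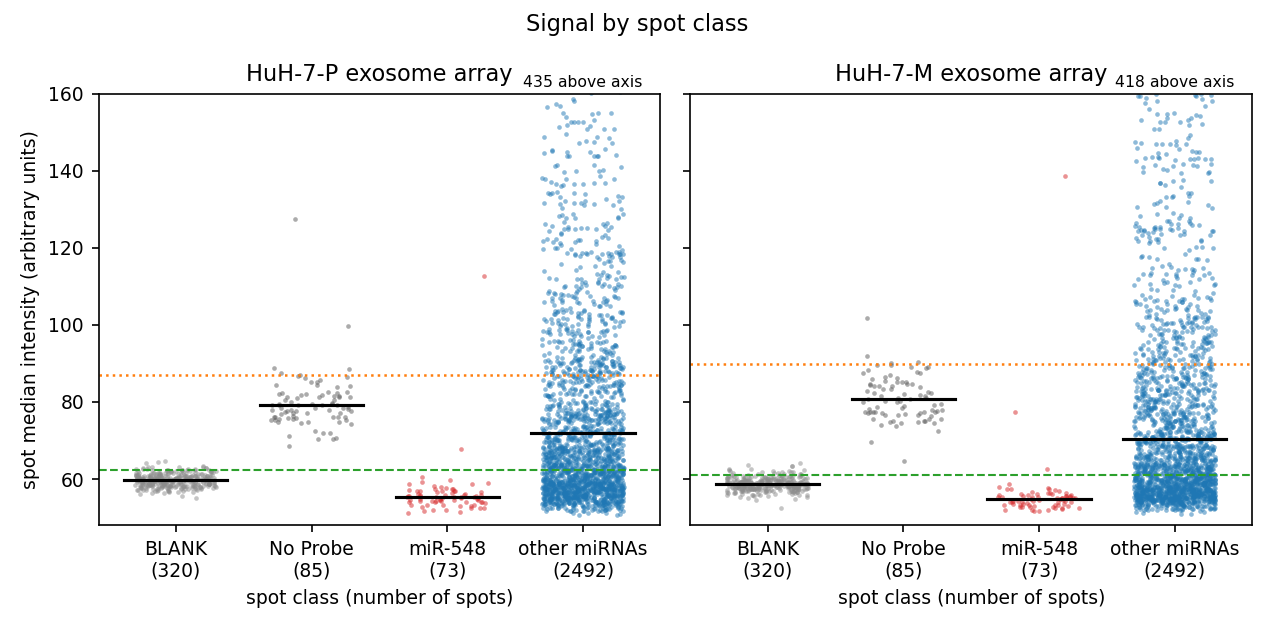
Spot median intensity (arbitrary units) on each array for the 320 BLANK spots, the 85 No Probe spots, the 73 miR-548 probes and the 2492 other miRNA probes. Each point is 1 spot, black bars are medians, the dashed green line is the BLANK limit (62.3 and 61.2) and the dotted orange line the No Probe limit (86.9 and 89.9). The axis ends at 160, above which lay 435 and 418 other miRNA probes. The miR-548 cloud sits below the BLANK median on both arrays, with 1 point above the No Probe limit.

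The members were not only short of the limit but mostly under the BLANK mean itself. On HuH-7-P 69 members (94.5%) lay below that mean, against 28.0% of all probes, and on HuH-7-M the count was again 69, against 27.0% of all probes. On both arrays at once 68 members (93.2%) did so, against 24.1% of all probes. On HuH-7-P 34 members (46.6%) were dimmer than the lowest of the 320 BLANK spots (55.2), against 9.24% of all probes. On HuH-7-M the lowest BLANK spot was at 52.4, and 6 members (8.22%) were dimmer, against 1.33% of all probes. In rank, 66 members (90.4%) were among the dimmest 25% of all miRNA probes on both arrays, against 21.3% of all probes. BLANK spots are thus no floor for these probes.

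The spots labelled No Probe gave a second and brighter background, with means over 85 spots of 79.8 ± 7.20 (SD) on HuH-7-P, and of 81.1 ± 5.73 on HuH-7-M. On both arrays 71 members (97.3%) were dimmer than the lowest No Probe spot, against 41.9% of all probes. The limit drawn from these spots in the same way was 86.9 on the HuH-7-P and 89.9 on the HuH-7-M array. On HuH-7-P 1 member passed it, against 35.2% of all probes. On HuH-7-M the same member passed alone, against 31.5% of all probes. That member was miR-548q.

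miR-548q was the brightest member on both arrays. Its signal was 113 on HuH-7-P, rank 603 of the 2565 miRNA probes, and 139 on HuH-7-M, rank 490. Among the 52 members with a RefSeq sequence it also had the highest GC content, 54.5%, and its seed CUGGUGC was shared by no other. On the normalized scale, which adds an offset of 50 after background correction and matches the distributions of both arrays, the difference was a log2 of 0.33, HuH-7-P being subtracted from HuH-7-M. In the authors' deposited table miR-548q had 43.5 for HuH-7-P against 67.1 for HuH-7-M, a log2 difference of 0.62 without an offset. A bright spot lay beside it: miR-4269, at 129 on the HuH-7-P and 133 on the HuH-7-M array, while the probe for miR-30b-3p among its 8 neighbours read 98.8 and 90.8. The part of neighbouring spots in its signal was not tested.

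miR-548ab was the other member above the BLANK limit on both arrays. It read 67.7 on the HuH-7-P and 77.4 on the HuH-7-M array, ranks 1387 and 1056, and on both arrays it stayed below the No Probe limit. The normalized log2 difference was 0.25. The authors' values rebuilt from its spot were 6.54 and 15.7, a log2 difference of 1.26. Their deposited table holds these values under the name miR-378d. With the BLANK mean subtracted in place of the background correction and its offset, the normalized difference was 1.32. The size of this difference changed with the offset, and at an offset of 16 it was 0.54. One of its 8 neighbouring spots was miR-1260a, placed corner to corner, at 2330 on the HuH-7-P and 3895 on the HuH-7-M array. A spot on one side, miR-675-5p, read 163 and 206. The neighbour on another side, the member miR-548ah-5p, read 57.8 and 52.9. The part of the bright neighbours in the miR-548ab signal was not tested.

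Among the members with a RefSeq sequence, the signal of miR-548ab did not extend to those most like it. miR-548n, which is 2 edits away and shares a run of 20 bases with it, read 52.9 on the HuH-7-P and 55.1 on the HuH-7-M array. The gap between these 2 spots was 14.7 units on the HuH-7-P and 22.3 on the HuH-7-M array. miR-548k, also 2 edits away, read 55.9 and 56.4, which left gaps of 11.7 and 21.1. miR-548b-5p, 3 edits away and with the same seed, read 52.5 and 53.2. Among all members with a sequence, 21 pairs of 17 members lay within 2 edits of each other. In those without miR-548ab both members were below the BLANK limit, and the gap was at most 4.66 on the HuH-7-P and 2.58 on the HuH-7-M array, as follows from signals at background.

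miR-548ay-3p crossed the BLANK limit on HuH-7-M alone. It read 59.9 on HuH-7-P, rank 1835, and 62.6 on HuH-7-M, rank 1584. Its HuH-7-M signal lay below the highest BLANK spot of that array, 64.2. The difference can be given only as a bound, and on the normalized scale HuH-7-M was at least 1.02-fold higher. The direction of that bound follows from the array on which the member passed, so it is no separate result. With the arrays scaled to their Spike Control spots the bound fell below 1 and no fold could be given. miR-548at-3p, which has the same seed AAAACCG, was above the limit on neither array. The bright spots next to miR-548ay-3p were miR-6794-5p (926 and 891) and miR-4443 (1027 and 574). Its other neighbours were miR-4701-5p (94.6 and 100), miR-6793-3p (73.4 and 70.9) and the member miR-548ay-5p (54.3 and 56.2). The part of neighbouring spots in the result was not tested.

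Below these members the signals lay close together. On HuH-7-P the next brightest were miR-548as-5p at 60.5, the member nearest below the BLANK limit, and miR-548e-3p at 59.1. On HuH-7-M they were miR-548ar-5p at 58.8, again nearest below the limit, and miR-548au-3p at 57.9. The dimmest member was miR-548i on HuH-7-P, at 51.1, and miR-548az-5p on HuH-7-M, at 51.6. Across the 70 members below the limit, signals on the arrays correlated at r = 0.444 (Pearson, 70 probes with 1 spot per array). For the 320 BLANK spots, each at the same place on both arrays, r was 0.117. Both values are descriptions, and the probes of a correlation share their array and hybridisation.

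**Figure D2:**
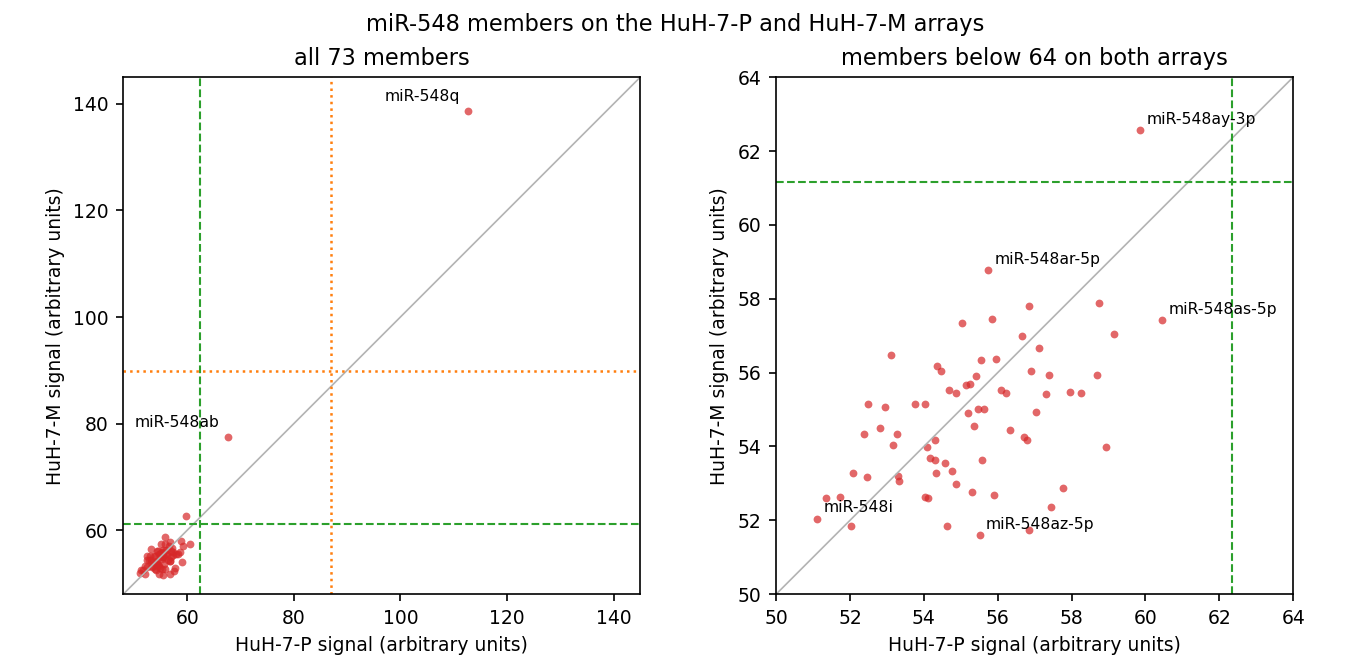
Spot median intensity (arbitrary units) of the 73 members, with the HuH-7-P array on the horizontal and the HuH-7-M array on the vertical axis, all members on the left and those below 64 on both arrays enlarged on the right. Each point is 1 member, dashed green lines are the BLANK limit and dotted orange lines the No Probe limit of each array, and the grey line marks equal signals. miR-548q and miR-548ab stand above the BLANK limit on both arrays, miR-548ay-3p on HuH-7-M alone, and the other members lie in a band that ends at 60.5 on the HuH-7-P and 58.8 on the HuH-7-M array.

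Neither member measured on both arrays differed by 2-fold on the normalized scale with its offset of 50. Of these 2 members none reached a 2-fold higher level in HuH-7-M exosomes, beside 0.439% of the 1593 miRNAs above the limit on both arrays. None was at least 2-fold lower, beside 1.76% of those miRNAs. At such shares, 2 members are too few for counts of 0 to set the family apart. An offset of 16 left both member counts at 0. Over all miRNAs it gave 16 higher and 40 lower, where the offset of 50 gave 7 and 28. With the BLANK mean subtracted in place of the background correction and its offset, miR-548ab passed 2-fold. In all, 62 miRNAs were then higher and 65 lower. In the authors' values miR-548ab passed 2-fold too, with 63 higher and 67 lower in all. The median over the 2 measured members was 0.29 (log2), beside 0.01 over the 1593 miRNAs, whose quartiles were -0.07 and 0.10. Spots of a single control probe on a single array varied with a log2 SD of 0.157 on the HuH-7-P and 0.180 on the HuH-7-M array, pooled over 24 control probes, which gives 0.24 for a difference of 1 spot per array. On the same unscaled log2 scale the members' signals differed by 0.30 (miR-548q) and 0.19 (miR-548ab), near that pooled value. For the 17 control probes with mean signals under 130 on both arrays, the spread of the HuH-7-P array gives 0.240 for such a difference. The spread of the HuH-7-M array gives 0.271. Both values lie above the difference of miR-548ab and below that of miR-548q. Control probes with scattered spots weigh heavily in these values. Log2 signals of BLANK spots had an SD of 0.0395 on the HuH-7-P and 0.0401 on the HuH-7-M array, which gives 0.0558 and 0.0567 for a difference. BLANK spots are empty, so their spread does not hold that of probe signals. None of these values holds the spread between cultures or labelling reactions. The 7 control probes with mean signals from 65 to 130 on HuH-7-P had log2 ratios, HuH-7-M over HuH-7-P, between -0.15 and 0.56. The ends were S-Probe7 at -0.15 and S-Probe6 at 0.56, and the other 5 lay between 0.034 and 0.117. The differences of both members thus lay within the range of these 7 control probes, above all of them but S-Probe6. The control ratios are of means over at least 8 spots per array, while each member has 1 spot per array, so the measures are unlike.

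The direction of these differences also rested on how the arrays were scaled. Scaled to the Spike Control spots, miR-548q was at -0.25 and miR-548ab at -0.34, both lower in HuH-7-M. That scaling moved the median of all 1593 miRNAs to -0.58, so both members stayed above the median there too. Over all 73 members the lower signal fell on HuH-7-M in 42 (57.5%), against 56.3% of all probes. The signals of 69 members (94.5%) lay within 5 units of each other on the arrays, against 66.9% of all probes.

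Both arms of the hairpins were dim. The 26 probes named for a 3p arm had medians of 55.9 on the HuH-7-P and 55.0 on the HuH-7-M array. The 23 probes named for a 5p arm had medians of 55.3 and 54.2, and the 22 with no arm in the name had 55.0 and 54.8. The 2 probes with names of more than one such kind had medians of 53.6 and 53.8.

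The most common seeds belonged to members below the BLANK limit, with miR-548ab as the exception. The 52 members with a sequence had 29 distinct seeds, of which 21 were held by 1 member and 8 were shared by the other 31 members. AAAGUAA, the most common, was the seed of 11 members, with signals from 52.5 through a median of 55.9 to 67.7 on HuH-7-P and from 52.7 through 55.1 to 77.4 on HuH-7-M. Of these, miR-548ab alone passed the BLANK limit. AAAAACU, held by 7 members of the 3p kind such as miR-548aq-3p, had medians of 54.8 and 55.2 and none above the limit. AAGGUAA, held by 3 members, had medians of 54.1 and 54.5 and none above the limit.

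Base composition moved with signal across the array, and the members lie at its AU-rich end. GC content of the mature sequence ran from 15.8% to 54.5% in the members, with a median of 34.9%, against a median of 52.2% over all probes with a sequence. Across all 2264 such probes the Spearman correlation of GC content with signal was 0.760 on the HuH-7-P and 0.770 on the HuH-7-M array, as a description over probes that share an array. Within the 52 members it was 0.024 and 0.072. Below 30% GC, the 12 members had medians of 56.0 and 55.1 and the 58 other probes 54.7 and 54.5. miR-548ab, at 27.3%, was the 1 probe of these 70 above the BLANK limit on either array.

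Among the other probes the share above the limit rose with GC content from class to class, while the members there were few. Between 30% and 40% none of 32 members passed the limit, while 10.7% of 300 other probes did on the HuH-7-P and 9.33% on the HuH-7-M array. Between 40% and 50%, 1 of 7 members passed on HuH-7-M and none on HuH-7-P, while 49.2% and 51.2% of 520 other probes did. miR-548q was the single member between 50% and 60%, a class in which 82.0% and 81.8% of 685 other probes passed. At 60% and above there was no member, and 96.3% and 96.1% of 649 probes passed. The part of base composition in the low signals of the family was not tested.

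**Figure D3:**
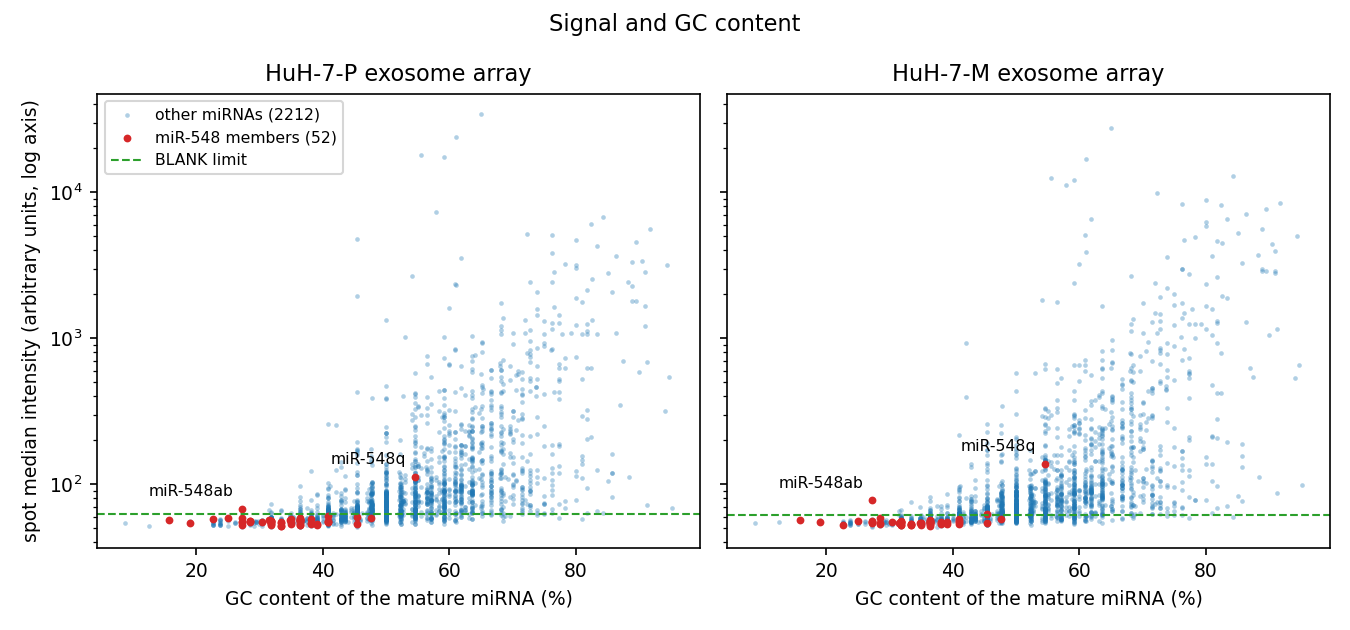
Spot median intensity (arbitrary units, log axis) against GC content of the mature sequence (percent) on each array, for the 52 members with a sequence and the 2212 other probes. Signal rises with GC content over all probes, and the members lie at the low end of both axes, apart from miR-548q at 54.5% GC.

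Seed sharing reached beyond the family name in 5 array miRNAs. Of these, 3 passed the BLANK limit on both arrays and none passed the No Probe limit. They are shown here because their seed letters equal those of a member, while the rest of the sequence differs.
miR-1323: uCAAAACUgaggggcauuuucu
miR-4445-3p: cACGGCAAaagaaacaaucca
miR-7161-5p: uAAAGACUguagaggcaacuggu
miR-1323, of the primate miRNA cluster on chromosome 19, read 80.2 on the HuH-7-P and 80.3 on the HuH-7-M array. miR-4445-3p read 65.3 and 68.7, and miR-7161-5p read 75.5 and 65.2, with normalized log2 differences of 0.12 and -0.21. miR-559 read 53.0 and 54.6, and miR-8054 read 61.9 and 60.3.

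Of 24 probes for other miRNAs held to derive from repeats, 16 were above the BLANK limit on both arrays, beside 62.1% of all probes. Of these, 5 also passed the No Probe limit on both, and none of the 16 was past 2-fold, at a median log2 difference of 0.07. Of those held to come from the same kind of element as miR-548, miR-603 and miR-579-5p were above the BLANK limit on both arrays, while miR-579-3p and miR-570-3p were above it on neither. miR-603, which shares a run of 17 bases with miR-548aq-3p, read 69.7 on the HuH-7-P and 67.5 on the HuH-7-M array.
miR-603: cACACACUgcaauuacuuuugc
miR-579-5p read 71.8 on the HuH-7-P and 68.7 on the HuH-7-M array, miR-579-3p 57.5 and 58.7, and miR-570-3p 56.3 and 54.8. The list also holds miRNAs held to derive from Alu elements, other primate repeats. Among them miR-1273g-3p read 257 on the HuH-7-P and 373 on the HuH-7-M array (normalized log2 difference 0.60), and miR-619-5p read 96.1 and 164 (0.88). miR-1273f read 136 and 210 (0.68), and miR-5096 read 67.1 and 89.4 (0.50). These were the highest differences among the Alu-derived miRNAs of the list, and the others ran from -0.14 (miR-1273d) to 0.16 (miR-1273c). From LINE-2 elements, miR-151a-5p read 69.3 and 67.2 and miR-95-3p 57.3 and 55.7.

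Marker miRNAs of hepatocytes, the cell type behind this line, were above background. All 5 hepatocyte markers were above the BLANK limit on both arrays and 2 of them above the No Probe limit on both. The summed signals of all 5 were 417 on the HuH-7-P and 442 on the HuH-7-M array. No background was subtracted, so most of each sum is at the level of BLANK spots. miR-122-5p, the dominant miRNA of hepatocytes, read 99.7 and 126. The 4 blood cell markers also passed the BLANK limit on both arrays and none passed the No Probe limit on both. Of the endothelial and stromal markers with a single-name probe 1 of 4 passed the BLANK limit on both arrays, of the placental ones 2 of 2, and of the embryonic stem cell ones 0 of 4. Probes with several names were left out of these marker counts. Among those left out, the probe shared by miR-199a-3p and miR-199b-3p was below the BLANK limit on both arrays. The probe shared by miR-517a-3p and miR-517b-3p was above it on both.

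The authors' deposited table pairs values and names in another way than the scanner output from a certain row on. It holds 70 of the 73 members by name, 27 before row 1134 and 43 from there on; the value of a scanner probe was found under its own name only before that row. Read by the table's names, 22 members carried a HuH-7-P value and 23 a HuH-7-M value, 21 on both arrays and 24 on either. Of these 24, miR-548q alone carried the value of its own scanner spot. miR-548aj-3p stood in the table at 2549 (HuH-7-P) and 4177 (HuH-7-M), while its own spot read 54.0 and 55.1. Those table values were rebuilt from the scanner spot of miR-4466, with signals of 3164 and 5032.

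Further members had high table values beside dim spots. The probe for miR-548z and miR-548h-3p stood at 559 and 917 in the authors' deposited table and at 52.0 and 51.8 by its spot; the table values came from the spot of miR-1268b. miR-548az-3p stood at 138 and 120 in that table and read 57.0 and 54.9, the table values coming from miR-6501-3p. miR-548an stood at 106 and 105 and read 55.3 and 54.5, the table values coming from miR-4538. In turn, the values rebuilt from the spot of miR-548ab stood in the authors' deposited table under the name miR-378d, and that of miR-548ay-3p under miR-6499-3p. Which of the name columns is right is not stated in the sources used here, and scanner names were used for every other value given.

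**Figure D4:**
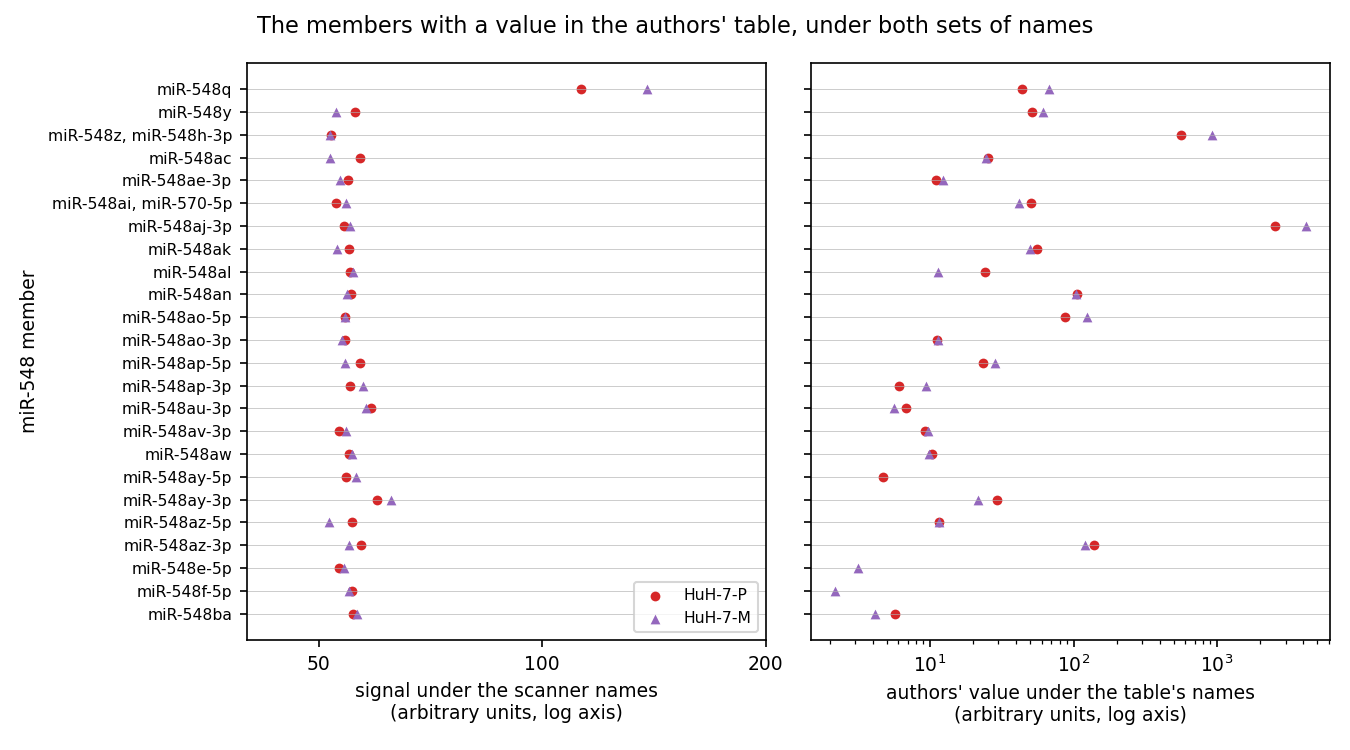
Values of the 24 members that carry a value under the names of the authors' deposited table (arbitrary units, log axis) beside the spot median intensity that the scanner output gives for the same name, for each array. miR-548aj-3p reaches 2549 and 4177 in the table with spots of 54.0 and 55.1, and miR-548q is the member whose table value was rebuilt from its own spot.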

How the data were processed

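Exosome RNA labelled with Cy5 was hybridised to 1 array per culture, per the labels' protocols. Per the file headers, the deposited scanner output gives each spot's median intensity, which was used without the column named as background. A second deposited table holds intensity values made by the authors, which could be rebuilt from the scanner output as the spot median less the BLANK mean, scaled to a common median. Of 1747 probes above the limit on either array, 1739 matched 1 table row by value (relative tolerance 1e-05), 699 under the same name and 1040 under another. Its software is not given in these sources. Signals were corrected with normexp on the BLANK spots (nec of limma 3.58.1, R 4.3.3; offset 50), quantile-normalized over miRNA probes and taken to log2; differences are HuH-7-M minus HuH-7-P. The offset draws differences of dim probes toward 0. No p-value was computed from 1 array per group, and the number of arrays limits precision. The steps were tested on simulated data in which only probes brighter than every member were changed. That test did not cover differences at the members' signals.

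Named members were those above the No Probe limit, the 5 brightest on each array, those with the highest and lowest differences or bounds, and those just inside and outside each limit; the dimmest, the close relatives of miR-548ab and the examples from the authors' table were chosen after their values were seen. Members, marker lists and the list of repeat-derived miRNAs were chosen with earlier results of these data known. Alternatives varied the background limit, the offset, the background step, the scaling, the probes with several names and the source of names.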

Additional observations from a re-analysis of the deposited data

How the results depend on the processing

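Counts of members above background were unchanged with a limit of 3 SD, with untrimmed BLANK spots and with single-name probes alone. The No Probe limit gave 1 for the HuH-7-P array, 1 for the other and 1 for both, and the table's names gave 22, 23 and 21. The cause was not tested for the settings that follow. With the BLANK mean subtracted in place of the background correction and its offset, miR-548ab reached 1.32 and miR-548q 0.64, with a median of 0.98. The authors' values gave 1.26, 0.62 and 0.94. Under each of these 2 settings 1 member, miR-548ab, was at least 2-fold higher. An offset of 16 gave 0.54 for miR-548ab, 0.47 for miR-548q and 0.51 for their median. Scaling to the Spike Control spots turned miR-548ab to -0.34, miR-548q to -0.25 and their median to -0.29. Over all 73 members without a filter the median was -0.00016. Against the BLANK mean the median signal was -4.40 (HuH-7-P) and -3.78 (HuH-7-M). Of all 68 alternatives, 47 left their result close to its value, the unchanged counts above included. Among all miRNAs, 7 were higher and 28 lower by 2-fold on the scale used here, 62 and 65 with the BLANK mean subtracted, 19 and 26 without scaling, 20 and 24 scaled to the median, 23 and 22 scaled to the 75th percentile, 63 and 67 in the authors' values, and 2 and 73 on the Spike scale. No paired analysis was possible because each group has 1 array. One spot per probe near background limits every difference given.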

Other observations

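Of the 24 control probes with at least 8 spots, 7 also had mean signals below the BLANK mean on both arrays, so probes other than those for miR-548 read under the empty spots.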
